A study of Homo sapiens with 6 samples.

Results

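The genes described here are the vascular endothelial growth factor (VEGF) ligands VEGFA, VEGFB, VEGFC and PGF, the VEGF receptors FLT1 and KDR, the co-receptors NRP1 and NRP2, and the hypoxia-linked angiogenic factors ADM and ANGPTL4. They were chosen by gene name, and 8 of the 10 were found among the 30676 genes of the table; FLT1 and KDR were not analysed here. RNA was sequenced from 6 libraries labelled as HCT116, an established human colorectal cancer line, of wild-type genotype. Of these, 3 came from cells given 10 µM GIA, which the series title describes as a genistein isoflavonoid alkaloid. The other 3 came from cells given DMSO (0.1%), labelled as the control. The DMSO content of the GIA cultures is not given in the labels used here. Both groups were kept at 1% oxygen for 24 hours, and no library came from normal oxygen. Nothing in the labels tells whether the 3 libraries of a group were grown as independent cultures. The p-values therefore reflect only how far these particular libraries lie apart, and that spread may be technical.

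VEGF ligands are secreted growth factors that bind receptor tyrosine kinases, mostly on endothelial cells, and drive the sprouting and permeability of blood and lymph vessels. Neuropilins have no kinase of their own; they bind VEGF and class 3 semaphorins and act beside VEGF receptors and plexins. When oxygen falls, the hypoxia-inducible factors HIF1A and EPAS1, paired with ARNT, bind a short core of the letters ACGTG or GCGTG at their target genes. VEGFA, ADM and ANGPTL4 are well known targets of this kind, and tumour cells are a common source of VEGFA. VEGFB is known as a ligand that responds little to oxygen.

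The stretches of 250 bases before the RefSeq starts of ADM, ANGPTL4 and VEGFB are printed because ADM and ANGPTL4 are oxygen-regulated genes, VEGFB serves as the less oxygen-dependent counterpart, and all 3 are among the more abundant genes of the group. Capitals mark matches to ACGTG or GCGTG on either strand, read in GRCh38.p14.
ADM, chr11:10304823-10305072, plus strand: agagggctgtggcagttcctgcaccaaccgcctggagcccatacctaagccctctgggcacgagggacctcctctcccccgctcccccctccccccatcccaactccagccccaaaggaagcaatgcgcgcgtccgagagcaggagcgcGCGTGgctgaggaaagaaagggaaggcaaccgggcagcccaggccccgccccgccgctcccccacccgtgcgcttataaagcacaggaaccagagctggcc
ANGPTL4, chr19:8363905-8364154, plus strand: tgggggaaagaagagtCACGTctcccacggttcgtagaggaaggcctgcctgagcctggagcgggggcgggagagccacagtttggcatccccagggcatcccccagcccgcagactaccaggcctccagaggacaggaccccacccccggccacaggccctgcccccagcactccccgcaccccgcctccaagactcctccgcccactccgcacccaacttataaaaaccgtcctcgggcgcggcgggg
VEGFB, chr11:64234334-64234583, plus strand: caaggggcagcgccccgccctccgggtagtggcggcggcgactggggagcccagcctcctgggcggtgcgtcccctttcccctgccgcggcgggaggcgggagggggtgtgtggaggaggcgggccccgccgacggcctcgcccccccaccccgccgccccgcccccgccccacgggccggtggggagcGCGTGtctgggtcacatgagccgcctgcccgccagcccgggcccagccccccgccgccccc
Each of the 3 stretches held 1 match, to the G-initial core in ADM and VEGFB and to the A-initial core in ANGPTL4. Counted from the RefSeq start, the first base of the match lay at -101 in ADM, -61 in VEGFB and -234 in ANGPTL4. VEGFC and 1 of 2 PGF starts also held 1 match each, the other PGF start held 0 and NRP2 held 0. The promoter table gave windows for 6 of the 8 genes, without VEGFA and NRP1. RefSeq starts differed in part from the gene spans given with the FPKM values, where ANGPTL4 starts at 8363289 and VEGFB at 64234538. The whole ANGPTL4 stretch and the end of the VEGFB stretch therefore lie inside those spans. The ADM stretch ends just before its span. The NRP2 window and part of 1 PGF window also lie inside their spans. Of all 35116 windows of this length, 43.2% held at least 1 of the 2 cores, 18.5% the A-initial and 32.2% the G-initial core. G and C bases made up a median of 58.0% of all windows, and 68% to 82.8% of the windows of these 6 genes. The shares over all windows were not matched for this. The A-initial core overlaps the palindrome CACGTG, which 6.34% of all windows held, and 0 of the windows of these 6 genes did. A match is a run of letters and not a measured binding site.

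The table gave an FPKM (fragments scaled to gene length and library size) and an estimated count for each gene and library. GIA libraries held 64804849 to 67835059 estimated counts and DMSO libraries 55725249 to 63542466, and low counts piled up at 4, so 1 fragment may be worth about 4 counts. GIA library 2 stood apart from the rest: on counts divided by 4, the chi-square per degree of freedom was 5.995 to 9.74 in pairs that held it and 2.78 to 4.34 in all other pairs. Log2 fold changes without it are given for the 7 tested genes of the group, and medians without it for most of the gene lists. Results for PGF, the ligand shares and single listed genes are given only with it included. Markers went against part of the label. EPCAM, an epithelial surface protein usually abundant in colorectal cancer lines, had 0.119 to 0.335 FPKM in GIA libraries and 0.201 to 0.305 in DMSO libraries. CDH1, which encodes E-cadherin, had at most 0.049 FPKM in any library, while the keratins KRT8 and KRT18 averaged 146 and 255 FPKM. Of 8 epithelial markers, 4 averaged at least 0.5 FPKM, and the list summed to 382 to 452 FPKM in GIA libraries and 435 to 441 in DMSO libraries. Of 7 fibroblast and pericyte markers with values, 5 averaged at least 0.5 FPKM and the list summed to 176 to 223 FPKM in GIA libraries and 179 to 196 in DMSO libraries. Most of that sum was LUM, which encodes lumican, at 173 FPKM, and COL3A1 was at or near 0. The identity of the line was not tested, and the cells are named by their label. Of 6 endothelial markers with values, 1 (ESAM) averaged at least 0.5 FPKM, and CDH5, VWF, PECAM1 and TEK averaged under 0.1. Leukocyte markers summed to 17.2 to 23.2 FPKM in GIA libraries and 18.0 to 24.8 in DMSO libraries, nearly all of it CD68, with PTPRC at or near 0.

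VEGFB was the most abundant of the group and PGF was barely detected. Mean FPKM over the 6 libraries was 22.3 for VEGFB, 15.8 for VEGFA, 9.90 for ADM, 7.61 for ANGPTL4, 3.04 for VEGFC, 3.01 for NRP1, 0.799 for NRP2 and 0.0732 for PGF. The ranges over the 6 libraries overlapped for the neighbours VEGFC and NRP1, so this pair does not differ beyond its spread. They also overlapped for ADM and ANGPTL4, through GIA library 2 alone; ADM was the higher of the 2 in the other 5 libraries. All other neighbours in this order had separate ranges, with VEGFB 1.41 times VEGFA and ANGPTL4 2.50 times VEGFC. Among genes with a mean above 0, VEGFB lay at percentile 93.5, VEGFA at 90.6 and PGF at 36.0.

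**Figure D1:**
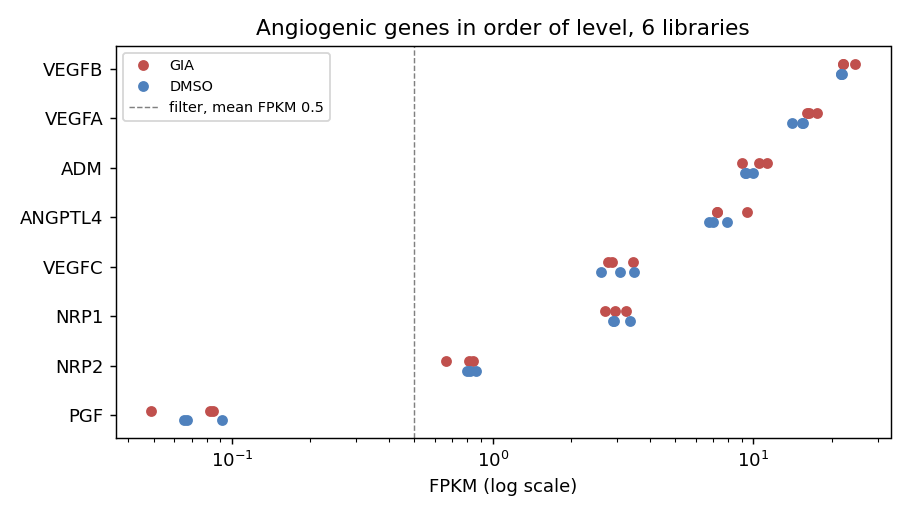
FPKM of the 8 genes on a log axis, in order of mean level, with each of the 3 GIA and 3 DMSO libraries as a point and the mean FPKM of 0.5 needed for testing as a dashed line. VEGFB, at 21.7 to 24.6 FPKM, and VEGFA, at 14.0 to 17.5, lie highest, and PGF, at 0.0489 to 0.0916, lies below the line.

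VEGFA, the main ligand of blood vessel growth, was slightly more abundant in each GIA library than in any DMSO library, and the difference did not pass the test over all genes. Its gene (ENSG00000112715, GRCh38 chromosome 6, 43770184 to 43786487, plus strand) had 16.1, 17.5 and 16.3 FPKM in GIA libraries 1 to 3, against 15.3, 14.0 and 15.5 FPKM in DMSO libraries 1 to 3. GIA library 2 was the highest and DMSO library 2 the lowest, and the groups did not overlap. The means were 16.6 ± 0.790 FPKM with GIA and 15.0 ± 0.791 FPKM with DMSO (SD, n = 3 each). By edgeR's quasi-likelihood test with Benjamini-Hochberg adjustment the log2 fold change was 0.15 (SE 0.05, 95% interval 0.05 to 0.26, or 1.03-fold to 1.20-fold), with an adjusted p of 0.875. The unadjusted p was 0.0102, rank 83 among 13721 genes tested. Without GIA library 2 the log2 fold change was 0.12. DESeq2 gave an adjusted p of 0.716 and limma on log2(FPKM + 0.5) 0.871, and an exact two-sided permutation test of the 6 values gave p = 0.1, the smallest it can give. Behind these values stood 12612 to 18780 estimated counts per library, the most of any gene in the group. The table lists 18 transcripts for VEGFA and 1 value for all of them, so its splice forms cannot be told apart. In bulk RNA, fewer cells that make a transcript and less of it per cell cannot be told apart either.

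VEGFB, a ligand of FLT1 and neuropilin 1 linked to metabolism and vessel survival, differed little (ENSG00000173511, chromosome 11, 64234538 to 64238793, plus strand). It had 22.1, 24.6 and 22.1 FPKM in GIA libraries 1 to 3, against 21.7, 21.7 and 21.9 FPKM in DMSO libraries 1 to 3. GIA library 2 stood above the rest, and the coefficient of variation of the 3 DMSO libraries was 0.547%. The groups did not overlap, by a narrow margin. The log2 fold change was 0.07 (SE 0.06, interval -0.05 to 0.20, edgeR adjusted p = 0.875), and 0.03 without GIA library 2.

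VEGFC, which acts on lymphatic vessels through FLT4, varied more between libraries than between groups (ENSG00000150630, chromosome 4, 176683538 to 176792922, minus strand). It had 2.77, 3.44 and 2.87 FPKM in GIA libraries 1 to 3, against 3.08, 2.60 and 3.49 FPKM in DMSO libraries 1 to 3. The highest and the lowest value were both in DMSO libraries, and the groups overlapped. The log2 fold change was -0.02 (SE 0.14, interval -0.33 to 0.29, edgeR adjusted p = 0.990), and its sign changed without GIA library 1 (0.04), GIA library 3 (0.02) or DMSO library 3 (0.09). Without GIA library 2 it was -0.11.

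PGF, placental growth factor, a ligand of FLT1, was close to the limit of detection (ENSG00000119630, chromosome 14, 74941834 to 74955626, minus strand). It had 0.0489, 0.0820 and 0.0844 FPKM in GIA libraries 1 to 3, against 0.0916, 0.0671 and 0.0653 FPKM in DMSO libraries 1 to 3. The groups overlapped, with GIA library 1 the lowest and DMSO library 1 the highest. These values rest on 22 to 36 estimated counts per library, or 5.5 to 9 fragments if 1 fragment is worth 4 counts. PGF was below the filter and was fitted only with no filter. There its log2 fold change was -0.10 (95% interval 0.536-fold to 1.62-fold, edgeR adjusted p = 0.975). The interval is wide, and a change of a size between these bounds is not excluded.

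As shares of the summed FPKM of the 4 ligands, VEGFB held the most, then VEGFA, then VEGFC. VEGFA made up 39.2%, 38.4% and 39.4% of that sum in GIA libraries 1 to 3, against 38.1%, 36.6% and 37.9% in DMSO libraries 1 to 3. VEGFB made up 53.7 ± 0.256% with GIA and 54.6 ± 1.60% with DMSO, and VEGFC 7.08 ± 0.405% with GIA and 7.66 ± 0.870% with DMSO (SD, n = 3 each). The share of VEGFA did not overlap between groups, and its exact two-sided permutation p was 0.1, the smallest possible, or 0.267 after Benjamini-Hochberg adjustment over 8 ratios and shares. The 8 were chosen after the values were seen, and none passed.

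**Figure D2:**
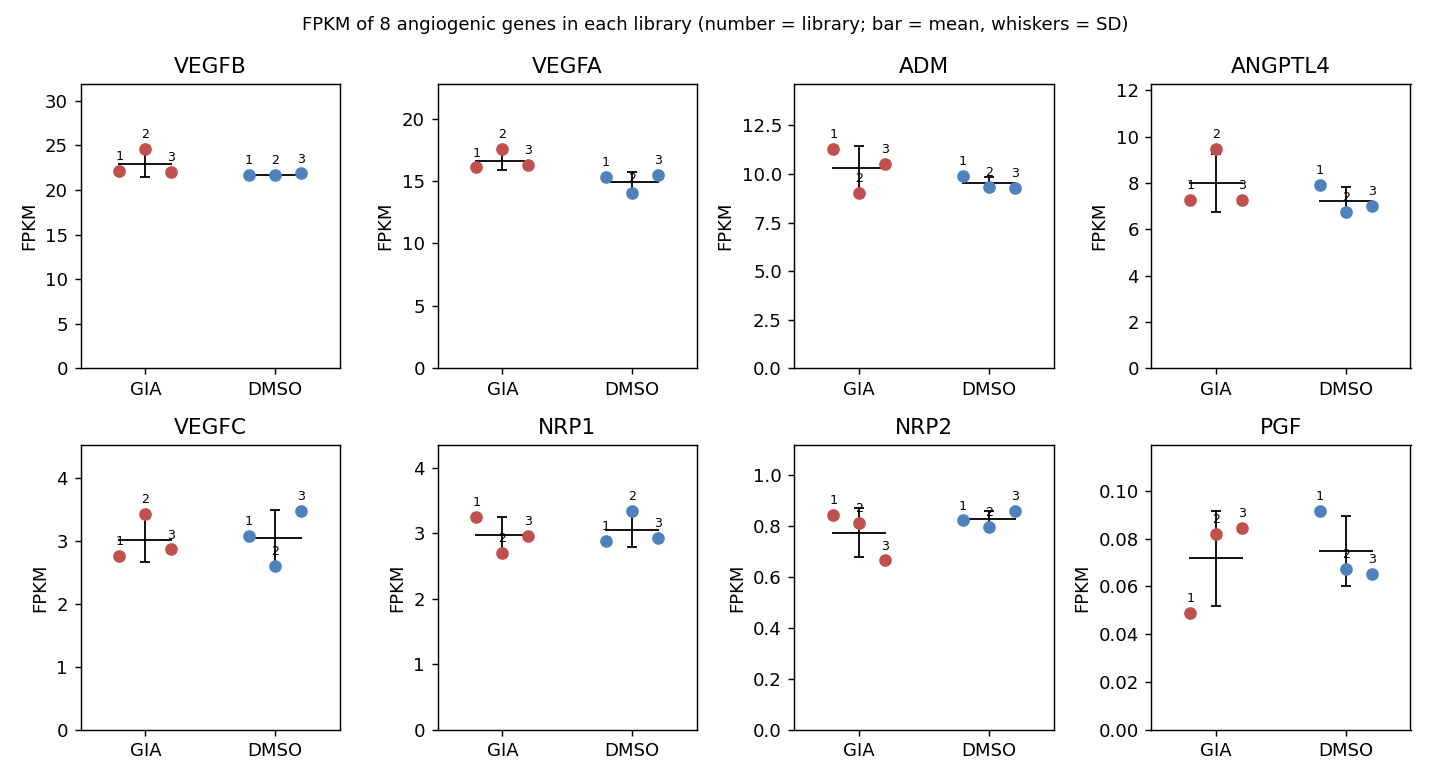
FPKM of each of the 8 genes in GIA libraries (left, red) and DMSO libraries (right, blue), with each point numbered by library, the bar at the group mean and whiskers of 1 SD (n = 3 each); each axis starts at 0. VEGFA and VEGFB have no GIA point below a DMSO point, and the groups overlap for each of the other 6 genes.

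The neuropilins were also similar between groups, and NRP1 was on average 3.77 times as abundant per length as NRP2. NRP1, a co-receptor for VEGFA and for semaphorin 3A (ENSG00000099250, chromosome 10, 33177492 to 33336262, minus strand), had 3.25, 2.71 and 2.96 FPKM in GIA libraries 1 to 3, against 2.89, 3.35 and 2.93 FPKM in DMSO libraries 1 to 3. The lowest value was in GIA library 2 and the highest in DMSO library 2, and the groups overlapped. NRP1 gave a log2 fold change of -0.04 (SE 0.08, with interval -0.23 to 0.15, edgeR adjusted p = 0.944), and its sign changed without GIA library 2 (0.03) or DMSO library 2 (0.03). NRP2, which binds VEGFC and semaphorin 3F (ENSG00000118257, chromosome 2, 205681990 to 205798133, plus strand), had 0.843, 0.811 and 0.664 FPKM in GIA libraries 1 to 3, against 0.821, 0.797 and 0.859 FPKM in DMSO libraries 1 to 3. GIA library 3 was the lowest and the groups overlapped. NRP2 gave a log2 fold change of -0.10 (SE 0.11, with interval -0.34 to 0.14, edgeR adjusted p = 0.899), with -0.0039 without GIA library 3 and -0.13 without GIA library 2. The ratio of NRP1 to NRP2 was 3.88 ± 0.559 with GIA and 3.71 ± 0.429 with DMSO (SD, n = 3 each; exact permutation p = 0.7). Noncoding genes on the opposite strand overlap both neuropilin genes, at no more than 0.0156 FPKM on average.

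ADM and ANGPTL4, both targets of hypoxia-inducible factors, followed different libraries. ADM encodes adrenomedullin, a vasodilator peptide that also supports vessel growth (ENSG00000148926, chromosome 11, 10305073 to 10307397, plus strand). It had 11.3, 9.04 and 10.5 FPKM in GIA libraries 1 to 3, against 9.91, 9.35 and 9.30 FPKM in DMSO libraries 1 to 3. The highest value was in GIA library 1 and the lowest in GIA library 2, so the 3 DMSO libraries lay between GIA values. ADM gave a log2 fold change of 0.11 (SE 0.09, with interval -0.09 to 0.31, edgeR adjusted p = 0.878), with 0.04 without GIA library 1 and 0.20 without GIA library 2.

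ANGPTL4 encodes a secreted inhibitor of lipoprotein lipase with reported effects on vessels (ENSG00000167772, chromosome 19, 8363289 to 8374370, plus strand). It had 7.28, 9.45 and 7.28 FPKM in GIA libraries 1 to 3, against 7.92, 6.74 and 7.02 FPKM in DMSO libraries 1 to 3. GIA library 2 was the highest, the other 2 GIA libraries lay within the range of the DMSO libraries, and the groups overlapped. ANGPTL4 gave a log2 fold change of 0.14 (SE 0.11, with interval -0.11 to 0.40, edgeR adjusted p = 0.877), and 0.01 without GIA library 2. The ratio of ADM to ANGPTL4 was 1.55, 0.957 and 1.45 in GIA libraries 1 to 3, against 1.25, 1.39 and 1.32 in DMSO libraries 1 to 3. GIA library 2 was the 1 library with a ratio below 1, and the other 2 GIA libraries lay above the DMSO libraries. An exact two-sided permutation test of the ratio gave p = 1.

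Of the 7 genes tested, 0 rose and 0 fell, and of all 13721 genes tested 0 passed (0%) by edgeR's quasi-likelihood test. At an unadjusted p under 0.05 there was 1 of the 7 (VEGFA), where 4.59% of all genes tested lay under it, 2.65% with a higher level in GIA libraries; DESeq2 and limma likewise called 0 genes, with 4.75% and 4.88% under it. Groups that did not overlap and lay higher with GIA were found for VEGFA and VEGFB, 2 of 7, against 5.63% of all genes tested. In either direction the share of all genes tested was 11.2%. The median log2 fold change of the 7 was 0.07 (4 positive and 3 negative), or 0.025 without GIA library 2, and that of all genes tested was 0.00038. For 7 of 7 genes both bounds of the 95% interval were less than 1.5-fold from no difference, as they were for 83.0% of all genes tested. The farthest bound was 1.32-fold, for ANGPTL4. These intervals are not adjusted for their number. Without any single library the 7 still gave 0 calls, with a smallest adjusted p of 0.469 (VEGFA, without GIA library 1).

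**Figure D3:**
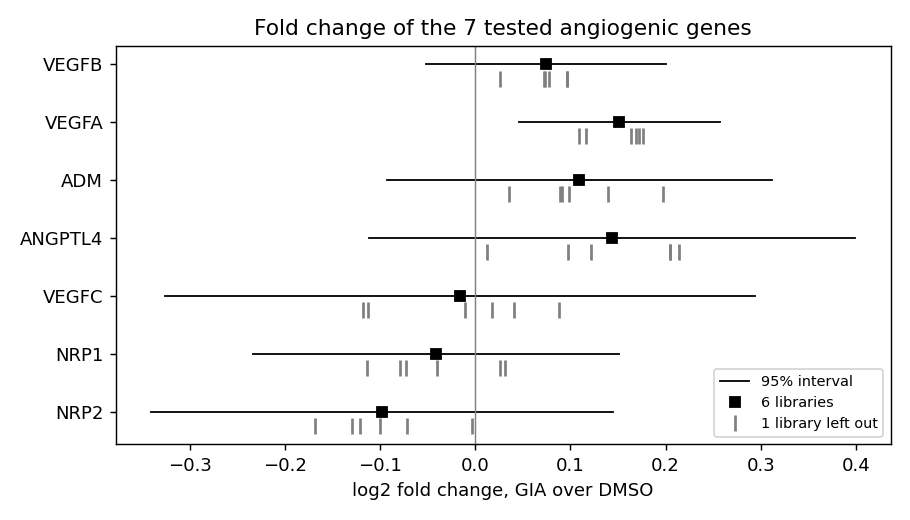
Log2 fold change of the 7 tested genes, GIA over DMSO, by edgeR's quasi-likelihood test, with squares for all 6 libraries, lines for the 95% interval and grey ticks for the values with 1 library left out. VEGFA is the gene whose interval lies above 0 (0.05 to 0.26), and the ticks of VEGFC and NRP1 fall on both sides of 0.

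GIA library 2 was most often the highest and DMSO library 2 most often the lowest library among 13 hypoxia-inducible genes outside the group. GIA library 2 was the highest library for 3 of the 7 genes (VEGFA, VEGFB and ANGPTL4), for 11 of 13 other hypoxia-inducible genes, and for 29.6% of all genes tested. It was also the lowest library for 2 of the 7 (NRP1 and ADM), for 1 of the 13 and for 23.9% of all genes tested. DMSO library 2 was the lowest for 4 of the 7 (VEGFA, VEGFB, VEGFC and ANGPTL4), for 8 of the 13, and for 17.9% of all genes tested. For VEGFB the margin was narrow, at 21.6648 FPKM against 21.6709 in DMSO library 1. PFKFB4, an enzyme that controls glycolysis and a known hypoxia target, had 3.13, 4.48 and 3.27 FPKM in GIA libraries 1 to 3, against 3.90, 2.09 and 3.10 FPKM in DMSO libraries 1 to 3. KDM3A, a histone demethylase induced by low oxygen, had 2.88, 3.63 and 2.79 FPKM in GIA libraries 1 to 3, against 2.95, 2.71 and 2.82 FPKM in DMSO libraries 1 to 3. PFKFB3, of the same 13, went the other way, lowest in GIA library 2 and highest in DMSO library 2. It had 5.20, 4.58 and 5.12 FPKM in GIA libraries 1 to 3, against 5.16, 5.43 and 5.02 FPKM in DMSO libraries 1 to 3. ADM, although a hypoxia target, was lowest in GIA library 2. Leaving out GIA library 2 put the log2 fold change of VEGFA at 0.12, and leaving out DMSO library 2 put it at 0.11. The actual oxygen level of each culture is not among the labels, and its part in these values was not tested.

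**Figure D4:**
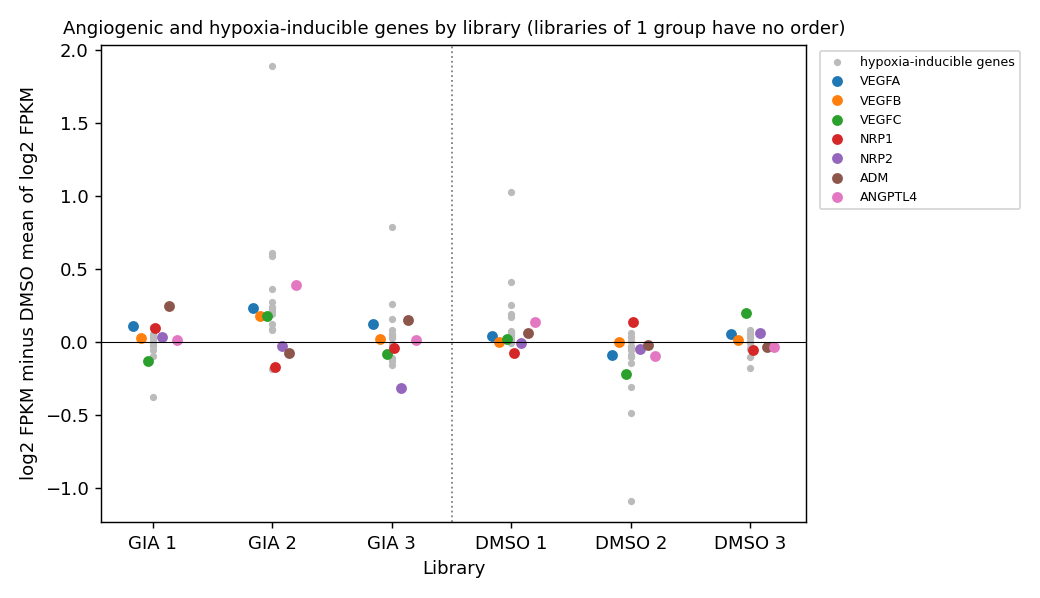
Log2 FPKM of the 7 tested genes (coloured points) and 13 other hypoxia-inducible genes (grey points) in each library, less the mean of the DMSO libraries. The farthest grey point, at 1.89 in GIA library 2, is CA9; ANGPTL4 is at 0.39 and VEGFA at 0.23 in that library, while ADM is at -0.07.

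The genes most like each of the 4 genes of the group with a mean of at least 5 FPKM were found from log2(FPKM + 0.5), centred on each gene's own mean over the 6 libraries. Likeness was the root mean square difference, over 11937 other genes that averaged 1 FPKM or more. For VEGFA, which itself deviated by 0.09, the nearest were AHNAK2 at 0.01, MMP24OS at 0.02 and FAM13A at 0.02, and 211 genes lay within 0.05. AHNAK2 had 8.67, 9.53 and 8.63 FPKM in GIA libraries 1 to 3, against 8.14, 7.52 and 8.34 FPKM in DMSO libraries 1 to 3, which follows the libraries in the same order of high and low as VEGFA except between GIA libraries 1 and 3. VEGFB had 1267 genes within 0.05, the nearest being EPN2, ATPAF2 and LGMN, since it varied little. ADM had 26 within 0.05 (nearest WNT9A, MSRB1 and PUDP) and ANGPTL4 22 (nearest CLDN7, TLE2 and ARSG). The 6 points share libraries and groups, and with 6 points some genes lie close by number alone.

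The other genes of the pathway were described through 8 lists of 111 genes in all, and 0 of their tested genes rose or fell by edgeR's quasi-likelihood test (background 0%). Groups did not overlap, in either direction, for 11.2% of all genes tested. A gene named for the smallest p of its list was chosen by its values, so a lack of overlap in it is no separate result. Of 3 tested ligands and receptors of the VEGF and PDGF families, 3 did not pass, with a median log2 fold change of 0.08, or 0.01 without GIA library 2 and 0.03 without DMSO library 2. PDGFB, a ligand that recruits pericytes, had 4.93 ± 0.253 FPKM with GIA and 4.65 ± 0.366 with DMSO (SD, n = 3 each), and its receptor PDGFRB 4.46 ± 0.806 with GIA and 3.98 ± 0.215 with DMSO. PDGFA, another ligand, had 3.66 ± 0.150 with GIA and 3.89 ± 0.254 with DMSO. VEGFD, the other lymphatic ligand, averaged 0.200 FPKM with GIA and 0.170 with DMSO and was below the filter.

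Adrenomedullin is made from its precursor with the help of PAM, which amidates peptides, and it signals through CALCRL paired with a RAMP protein. PAM had 22.4 ± 1.03 FPKM with GIA and 21.5 ± 0.313 with DMSO (SD, n = 3 each; log2 fold change 0.06, SE 0.04). CALCRL was listed at 0 in 5 of 6 libraries and RAMP1 likewise, and RAMP2 had at most 0.0621 FPKM. ACKR3, a scavenger receptor reported to bind adrenomedullin, had 6.04 ± 1.55 FPKM with GIA and 5.76 ± 0.231 with DMSO, and ADM2, a related peptide, 5.26 ± 0.267 with GIA and 5.21 ± 0.469 with DMSO. The 3 tested genes of this list did not pass, and their median was 0.06, or 0.03 without GIA library 2.

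Among semaphorins and plexins, the ligands and partners of neuropilins, 8 were tested and 8 did not pass, with 6 positive and 2 negative fold changes and a median of 0.05, or 0.03 without GIA library 2. SEMA3B was the most abundant, with 28.2 ± 3.17 FPKM with GIA and 25.9 ± 1.38 with DMSO (SD, n = 3 each), then PLXND1, a semaphorin receptor, with 16.0 ± 1.39 with GIA and 15.1 ± 0.367 with DMSO. SEMA3C had 10.3 ± 0.460 with GIA and 10.3 ± 0.353 with DMSO, and PLXNA1 9.48 ± 0.788 with GIA and 9.41 ± 0.240 with DMSO. PLXNA3 had the smallest p of the list: it had 3.34, 3.71 and 3.45 FPKM in GIA libraries 1 to 3, against 3.06, 3.28 and 3.20 FPKM in DMSO libraries 1 to 3, without overlap. Its log2 fold change was 0.14 (SE 0.05, edgeR adjusted p = 0.875). SEMA3A, a ligand of NRP1, had at most 0.00705 FPKM.

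Of 13 tested secreted or surface angiogenic factors outside the VEGF family, 13 did not pass, with 3 positive and 10 negative fold changes and a median of -0.07, or 0.01 without GIA library 2 and -0.03 without DMSO library 2. The abundant ones were the growth factor HDGF, with 270 ± 4.47 FPKM with GIA and 274 ± 3.43 with DMSO, the lectin LGALS3, with 59.9 ± 4.08 with GIA and 61.0 ± 0.719 with DMSO, and the matrix protein CCN1, with 39.7 ± 9.37 with GIA and 43.2 ± 4.48 with DMSO (SD, n = 3 each). EFNA1, an ephrin ligand, had 32.1 ± 3.32 with GIA and 30.2 ± 1.93 with DMSO. FGF2, a growth factor for endothelial cells, had the smallest p, with 17.3, 16.8 and 17.5 FPKM in GIA libraries 1 to 3, against 18.0, 18.4 and 18.2 FPKM in DMSO libraries 1 to 3. Its groups did not overlap, where the share of all genes tested without overlap, in either direction, was 11.2%. Its log2 fold change was -0.09 (SE 0.04, edgeR adjusted p = 0.875).

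Of 8 tested genes listed as inhibitors of angiogenesis, 8 did not pass. VASH2 (log2 fold change -0.11) was listed among them, though its role as an inhibitor was not checked here. The fold changes were 4 positive and 4 negative, with a median of -0.02. Without GIA library 2 the sign of that median turned, to 0.05. TIMP2, an inhibitor of matrix proteases, had 42.1 ± 0.970 FPKM with GIA and 41.1 ± 0.579 with DMSO (SD, n = 3 each). TIMP3, which also blocks VEGF binding to KDR, had 9.22, 9.30 and 9.18 FPKM in GIA libraries 1 to 3, against 9.02, 8.58 and 8.49 FPKM in DMSO libraries 1 to 3, without overlap. Its log2 fold change was 0.09 (SE 0.04, edgeR adjusted p = 0.875). THBS1, which encodes thrombospondin 1, had 3.77 ± 1.21 with GIA and 4.10 ± 0.307 with DMSO, and the protease ADAMTS1 1.79 ± 0.159 with GIA and 1.88 ± 0.0561 with DMSO.

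The 20 regulators of VEGFA and ANGPTL4 were all tested, 20 did not pass, and their median was 0.01, or 0.0077 to 0.03 with 1 library left out. EPAS1, which encodes HIF-2 alpha, had 39.2 ± 0.706 FPKM with GIA and 39.2 ± 1.43 with DMSO (SD, n = 3 each), a log2 fold change of -0.0033 (SE 0.04). HIF1A had a log2 fold change of 0.03 (SE 0.05). HNRNPL, a protein that binds the VEGFA mRNA, had 48.0 ± 0.759 with GIA and 47.3 ± 0.991 with DMSO, and ESRRA, a nuclear receptor that can drive VEGFA, 24.4 ± 0.464 with GIA and 25.5 ± 0.886 with DMSO. VHL, which marks hypoxia-inducible factors for destruction, had the smallest p, with 14.7 ± 0.534 with GIA and 13.8 ± 0.458 with DMSO and a log2 fold change of 0.09 (SE 0.04). PPARD, a nuclear receptor that drives ANGPTL4, had 6.49 ± 0.0129 with GIA and 6.50 ± 0.210 with DMSO.

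Among 13 tested hypoxia-inducible genes outside angiogenesis, 13 did not pass, with 9 positive and 4 negative fold changes and a median of 0.10, or 0.0080 without GIA library 2 and 0.05 without DMSO library 2. P4HA1, a collagen prolyl hydroxylase with the smallest p here, had 31.5, 35.9 and 32.6 FPKM in GIA libraries 1 to 3, against 31.8, 28.9 and 31.7 FPKM in DMSO libraries 1 to 3, and the groups overlapped. LDHA, which makes lactate, had 282 ± 14.1 with GIA and 273 ± 6.42 with DMSO, DDIT4, an inhibitor of growth signalling, 197 ± 17.4 with GIA and 189 ± 5.51 with DMSO, and the glucose transporter SLC2A1 20.8 ± 1.32 with GIA and 19.3 ± 1.26 with DMSO (SD, n = 3 each). Of 14 genes listed under endothelial VEGF signalling, 8 were tested, 8 did not pass and the median was -0.0055. The sign of that median turned without GIA library 2 (0.03) and without DMSO library 2 (0.0062). HSPB1, a small heat shock protein, had 337 ± 6.41 FPKM with GIA and 344 ± 3.26 with DMSO, and the kinase MAPKAPK2 24.6 ± 0.213 with GIA and 23.7 ± 0.508 with DMSO, without overlap. PXN, which encodes paxillin, had 22.0 ± 1.93 with GIA and 22.5 ± 0.653 with DMSO, and the adaptor NCK1 8.70 ± 0.316 with GIA and 8.66 ± 0.379 with DMSO. NOS3, the endothelial nitric oxide synthase, had at most 0.039 FPKM.

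**Figure D5:**
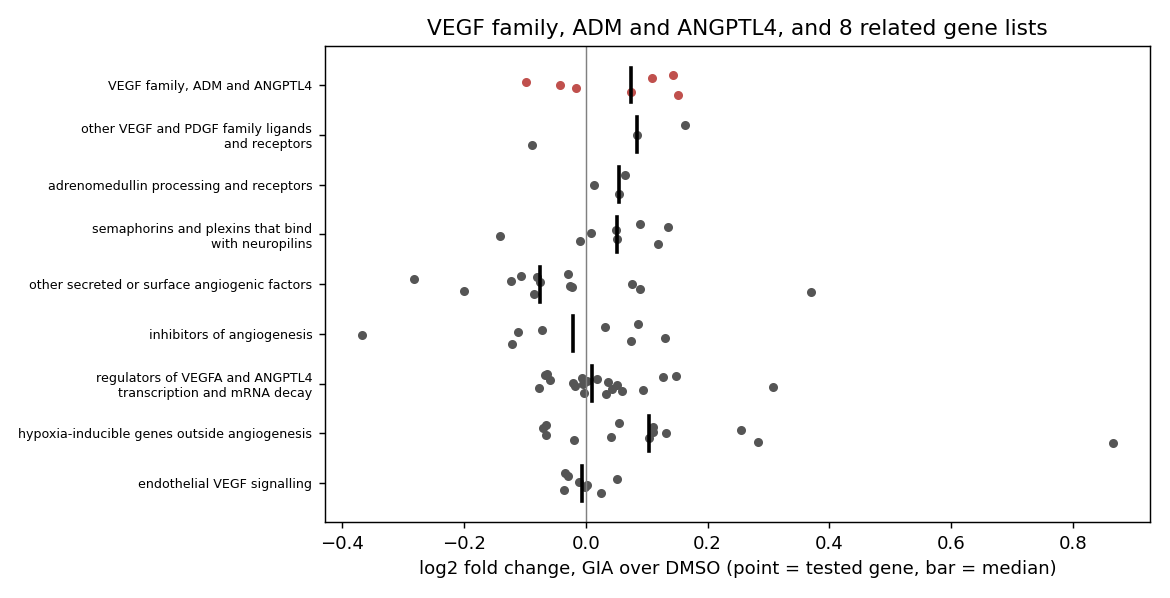
Log2 fold change, GIA over DMSO, of each tested gene of the VEGF family, ADM and ANGPTL4 (red) and of 8 related lists (grey), with a bar at the median of each row. The farthest point, at 0.87, is CA9, whose 95% interval (-0.32 to 2.06) spans 0.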

How the data were processed

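Per the labels' protocols, TRIzol was used to extract RNA of cells labelled HCT116, and a SMARTER kit for mRNA, which keeps the strand, to build 6 libraries. GRCh38 (hg38), DESeq2 1.22.2, StringTie 2.1.6, HISAT2 2.2.1, cutadapt and FastQC 0.10.1 are named in the submitters' processing notes, without roles. The counting step and annotation release are not given in the sources used here. For each gene and library the authors deposited FPKM and counts, per the file headers. Values at a count of 4 (6798) outnumbered those at 3 (4183) and 5 (2499), so the deposited counts were treated as estimated counts, and they were already whole. No interval here allows for fragments counted more than once other than through the spread between libraries.

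The quasi-likelihood test of edgeR 4.0.16 (R 4.3.3; TMM scaling, factors 0.997 to 1.01; two-sided; no covariate) compared GIA with DMSO over 13721 genes that averaged 0.5 FPKM or more, with Benjamini-Hochberg adjusted p under 0.05 as threshold. Fold changes are log2, GIA over DMSO; SEs come from the F statistic and intervals from its t distribution. Each pair of libraries differed beyond counting noise (chi-square per degree of freedom at least 2.78 on counts divided by 4), so none was counted as a copy. Alternatives were DESeq2 1.42.0, limma 3.58.1 on log2 FPKM with pseudocounts of 0.1, 0.5 and 1, library totals, other filters, counts divided by 4, a replicate block and leaving out each library. The genes, lists and tests were chosen with earlier results of these data known. Named list genes are the 4 of highest mean FPKM and the 1 of smallest p in each list; any other gene named was picked with its values in view. Promoters come from RefSeq (GRCh38.p14).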

Additional observations from a re-analysis of the deposited data

How the results depend on the processing

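No angiogenic gene passed the threshold under any of the 15 alternatives run, and none of the listed genes did. The direction of VEGFA, VEGFB, ADM, ANGPTL4 and NRP2 was the same under each alternative that could test them; the filter at a mean FPKM of 5 left VEGFC and the neuropilins untested, so no median was computed there. Leaving out 1 library each, the log2 fold change ranged from 0.11 to 0.18 for VEGFA, 0.03 to 0.10 for VEGFB, -0.12 to 0.088 for VEGFC (above 0 without GIA library 1, GIA library 3 or DMSO library 3, at 0.041, 0.017 and 0.088), -0.11 to 0.031 for NRP1 (above 0 without GIA library 2 or DMSO library 2, at 0.025 and 0.031), -0.17 to -0.0039 for NRP2, 0.04 to 0.20 for ADM and 0.01 to 0.21 for ANGPTL4, and their median from 0.03 to 0.09. Over all genes 0 were called with 6 libraries, and 0 to 5 with 1 library left out (5 without GIA library 3). With the replicate number as a block 3 genes were called, with VEGFA at 0.15 (adjusted p = 0.947). The cause was not tested. Same-numbered libraries had deviations that correlated at 0.052, 0.033 and 0.097, none above 0.1, so the numbers were not taken to pair the libraries; 5 of 6 libraries did correlate best with their own number, a hint towards pairing from the data and not from the design. PGF is limited by depth. With 3 libraries a group, an exact permutation test cannot go below p = 0.1.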
